A study of Homo sapiens with 8 samples.

Results

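The genes described here are inflammatory cytokines and the feedback inhibitors of NF-kB, the transcription factor that drives many of them. The list held 10 genes: the cytokines and chemokines IL6, CXCL8, CXCL1, CXCL2, CCL2, IL1B and LIF, and the NF-kB feedback genes NFKBIA, TNFAIP3 and BIRC3. Every probe set that the platform annotation assigned to one of them was taken, which gave 15 of 54613 probe sets and 9 of the 19775 genes with a probe set of their own. BIRC3, the 10th gene, has no values here, because the annotation used here named no probe set for it. CXCL2 had 3 probe sets, CXCL8, IL1B, NFKBIA and TNFAIP3 had 2 each, and IL6, CXCL1, CCL2 and LIF had 1 each.

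NF-kB dimers are held in the cytoplasm by IkB proteins. Signals from cytokine receptors, Toll-like receptors or DNA damage lead to phosphorylation and loss of IkB, and the freed dimers bind kappaB sites in the promoters of cytokine genes. The same dimers induce NFKBIA, which encodes IkB-alpha, and TNFAIP3, which encodes the ubiquitin-editing enzyme A20, so the response is switched off again. Tumour cells of mesenchymal origin often secrete CXCL8 and IL6 without any added stimulus.

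The cells were HTETOP, a clone of the human fibrosarcoma line HT1080. Its only source of topoisomerase II alpha (TOP2A) is a tetracycline-repressed construct, so that doxycycline shuts it off. The arrays measured 1 doxycycline sample (1 µg/ml, 24 h) against 1 vehicle sample, and 3 dexrazoxane samples (100 µM, 24 h) against 3 vehicle samples. Dexrazoxane blocks the catalytic cycle of topoisomerase II, and all groups shared the modified line. Doxycycline was given to this line alone, so loss of TOP2A and any other action of the drug cannot be told apart. Each array carried RNA pooled from several passages (15 to 17 for the doxycycline pair). The labels do not tell whether arrays 1, 2 and 3 of a group stem from different cultures. The spread behind each p-value is that among arrays, and it may be technical in origin.

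The values are log2 expression after RMA, a method that corrects background, aligns the distributions of arrays and summarises the probes of a set. The median of all probe sets was 4.81 on the doxycycline array and 4.82 on its vehicle array, and lay between 5.49 and 5.57 on the other 6, so levels were not compared across the 2 comparisons. TOP2A (201291_s_at) was at 6.02 on the doxycycline array, against 11.98 on its vehicle array. With dexrazoxane it averaged 10.88 ± 0.34, against 12.45 ± 0.086 with vehicle (SD, n = 3 each), and the limma adjusted p was 0.178 without and 0.0238 with the array number as a block. A second TOP2A set (201292_at) differed by -1.76 and passed without the block (limma adjusted p = 0.0353), and a dim set (237469_at) differed by -0.20 with dexrazoxane and 0.057 with doxycycline. All 8 mesenchymal marker genes were above the array median on every array. Of 6 leukocyte genes, 2 were above it on every array and 2 below it on every array, PTPRC being among the latter. Of 6 epithelial genes, 2 were above it and 4 below it throughout, and of 5 endothelial genes 1 and 2. In such bulk RNA, fewer cells of a type and less RNA per cell cannot be told apart. The dexrazoxane and vehicle arrays that carry the number 1 stood apart from those numbered 2 and 3: they correlated with each other at 0.996 over all probe sets and with the other 4 arrays at 0.987 to 0.990. The differences of the members are therefore also given without them.

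Sequence upstream of the start sites is shown first, because kappaB sites are what these genes are known to share. The lines give bases -100 to -41 before the RefSeq start (GRCh38.p14), on the strand of the gene, and for TNFAIP3, whose start in the table lies inside the outermost span of the gene, bases -70 to -41. Capitals mark a match to the kappaB consensus or to GGAATTTCC on either strand. The motifs overlap in CXCL1, CXCL2 and NFKBIA.
IL6 (chr7:22727100-22727159, + strand): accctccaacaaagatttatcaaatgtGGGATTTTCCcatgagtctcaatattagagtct
CXCL8 (chr4:73740469-73740528, + strand): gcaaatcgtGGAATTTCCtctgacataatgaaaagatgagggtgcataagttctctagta
CXCL1 (chr4:73869293-73869352, + strand): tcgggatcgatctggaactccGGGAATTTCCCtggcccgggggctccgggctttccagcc
CXCL2 (chr4:74099236-74099295, - strand): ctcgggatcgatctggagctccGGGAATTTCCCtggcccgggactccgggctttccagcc
IL1B (chr2:112836820-112836879, - strand): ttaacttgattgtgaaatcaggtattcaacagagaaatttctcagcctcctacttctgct
NFKBIA (chr14:35404790-35404849, - strand): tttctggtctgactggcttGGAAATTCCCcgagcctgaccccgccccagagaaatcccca
TNFAIP3 (chr6:137867189-137867218, + strand): tttGGAAAGTCCCgtGGAAATCCCCgggcc

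Within the 250 bases before the start, the kappaB consensus was present in IL6, CXCL1, CXCL2, NFKBIA and TNFAIP3, and in 9.96% of all 35116 RefSeq promoters searched in the same way. GGAATTTCC was present in CXCL8, CXCL1, CXCL2 and NFKBIA, and in 0.413% of all promoters. Neither set of letters was found in the 250 bases before IL1B. CCL2 and LIF are named only. CXCL1 and CXCL2, both on chromosome 4, share an unbroken run of 42 bases that begins 57 bases before both starts. A match describes the letters of these windows and is not evidence of binding in these cells.

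IL1B, which encodes the pyrogenic cytokine interleukin-1 beta, gave the widest spread of all members. Its probe set 205067_at was at 7.47, 10.08 and 9.98 on dexrazoxane arrays 1, 2 and 3, against 7.21, 10.60 and 10.38 on vehicle arrays 1, 2 and 3. The second set, 39402_at, gave 7.58, 10.24 and 10.15 with dexrazoxane, against 7.37, 10.60 and 10.42 with vehicle. On both sets the arrays numbered 1 were low with and without the drug, and the groups overlapped.

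Across the 6 arrays IL1B ranged over 3.39 on the log2 scale for the first set, a 10.5-fold span, and over 3.24 for the second. These were the 7th and 9th widest ranges among the 54613 probe sets. By sums of squares, array number took 97.9% and 98.9% of the spread of the IL1B sets and treatment 0.609% and 0.268%. Over the whole table the median share was 61.9% for array number and 9.68% for treatment. The mean IL1B difference, dexrazoxane minus vehicle, was -0.22 ± 0.95 (SE) for the first set and -0.14 ± 0.94 for the second, both far smaller than the spread between arrays of one group. With the array number as a block, which takes out most of that spread, the SEs were 0.14 and 0.12. The limma adjusted p-values of that fit were 0.578 and 0.678.

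**Figure D1:**
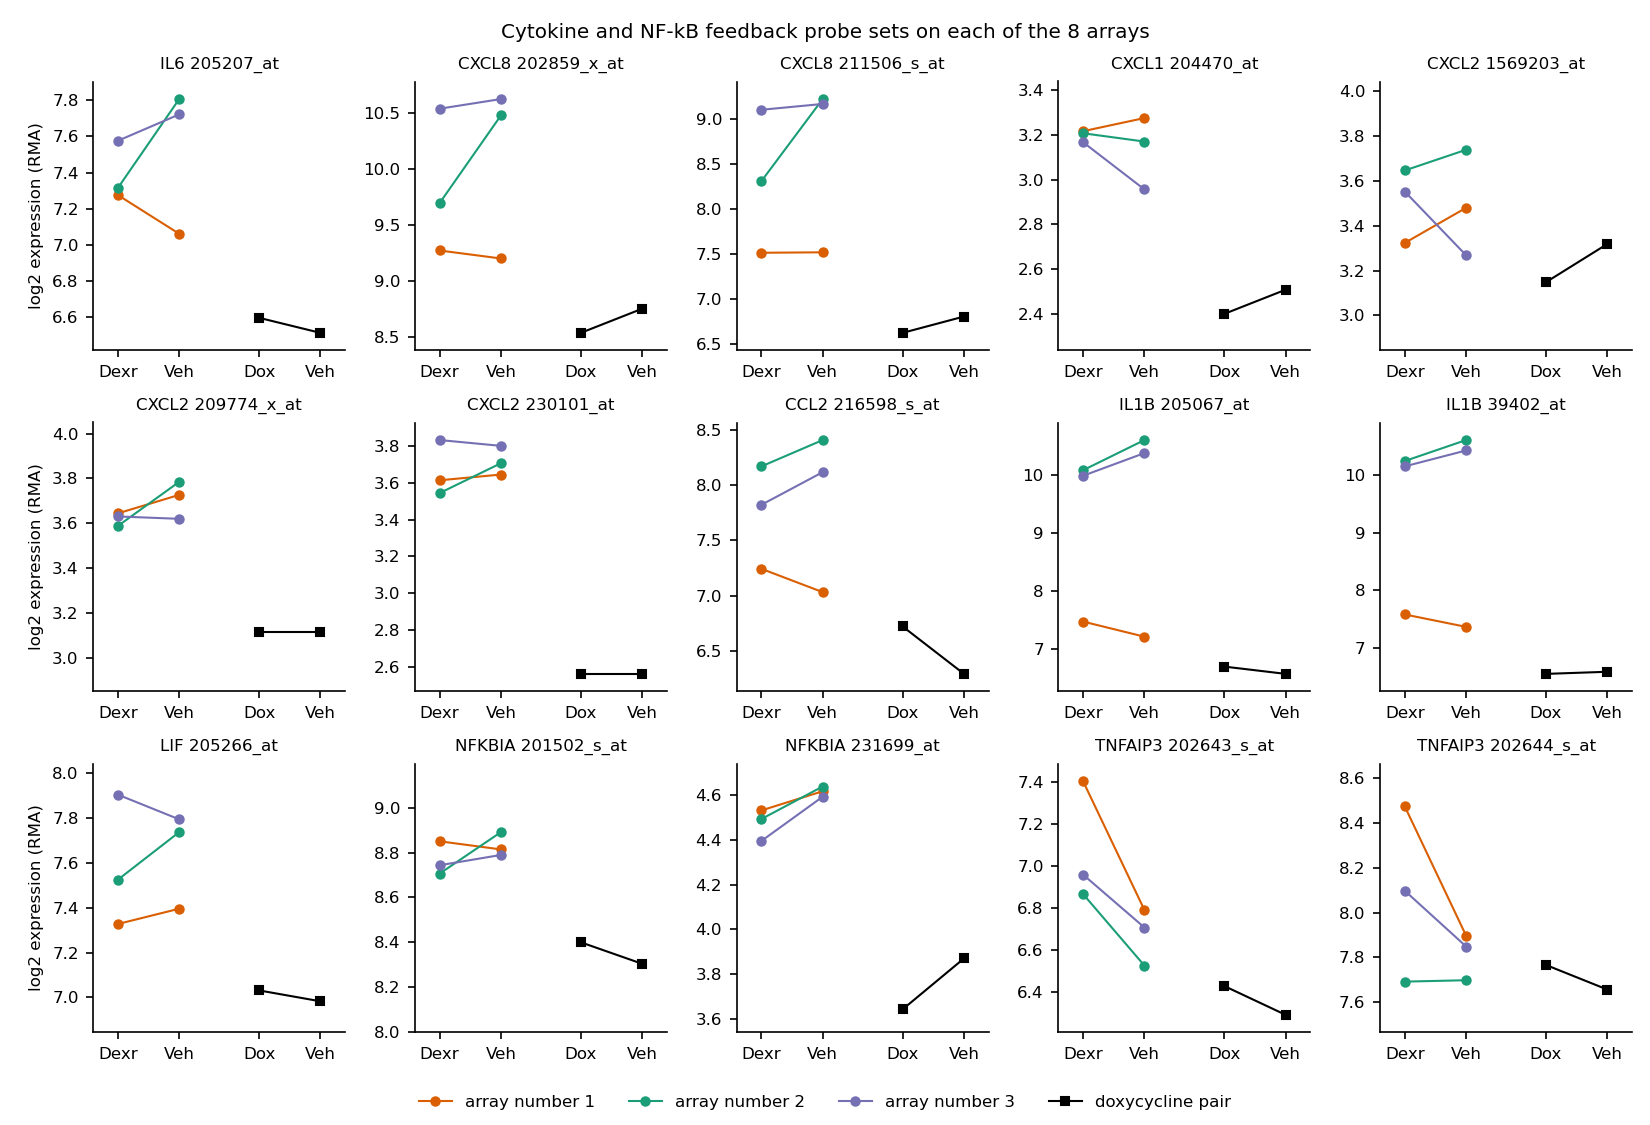
Log2 expression (RMA) of each of the 15 probe sets on dexrazoxane (Dexr) and vehicle (Veh) arrays, with lines joining arrays of the same number, and on the doxycycline (Dox) and vehicle arrays as black squares. Each panel has its own axis, and the doxycycline pair has lower array medians, so heights are not comparable between the 2 comparisons; IL1B, CXCL8 and CCL2 are low on both arrays numbered 1, and TNFAIP3 202643_s_at is higher on all 3 dexrazoxane arrays.

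CXCL8, the neutrophil-attracting chemokine also called interleukin-8, was also lowest on the arrays numbered 1. Probe set 202859_x_at was at 9.27, 9.70 and 10.54 on the dexrazoxane arrays, against 9.20, 10.48 and 10.63 on the vehicle arrays. Probe set 211506_s_at was at 7.51, 8.31 and 9.10, against 7.52, 9.22 and 9.17. Dexrazoxane array 2 was below vehicle array 2 on both sets, while the pairs numbered 1 and 3 lay close together.

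The mean CXCL8 differences were -0.27 ± 0.41 (SE) and -0.33 ± 0.50. By pair they were 0.071, -0.78 and -0.087 for the first set and -0.005, -0.91 and -0.065 for the second, so most of the mean came from the pair numbered 2. Array number took 85.5% and 87.3% of the spread, and with it as a block the SEs of the mean differences were 0.15 and 0.17.

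CCL2, which attracts monocytes, was at 7.24, 8.17 and 7.82 with dexrazoxane, against 7.03, 8.41 and 8.12 with vehicle. Both arrays numbered 1 were again the lowest of their group, and the groups overlapped. The mean difference was -0.11 ± 0.36 (SE). Array number took 93.7% of the spread, over a range of 1.38, and with it as a block the SE was 0.11.

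IL6, a cytokine that signals through the shared receptor subunit gp130, was at 7.28, 7.31 and 7.58 with dexrazoxane, against 7.06, 7.81 and 7.72 with vehicle. LIF, another ligand of that receptor family, was at 7.33, 7.52 and 7.91, against 7.40, 7.74 and 7.79. The lowest array of each group was number 1 for both genes, but the spans were smaller than for IL1B, at 0.75 for IL6 and 0.58 for LIF. Mean differences were -0.14 ± 0.20 (SE) for IL6 and -0.06 ± 0.17 for LIF, and with the array number as a block the SEs were 0.13 and 0.094.

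CXCL1 and CXCL2, close relatives of CXCL8 that bind the same neutrophil receptor, were dim. The single CXCL1 set and the 3 CXCL2 sets were below the median of their array on all 8 arrays. CXCL1 was at 3.22, 3.21 and 3.17 with dexrazoxane, against 3.27, 3.17 and 2.96 with vehicle. CXCL2 values ran from 3.32 to 3.83 with dexrazoxane over its 3 sets, and from 3.27 to 3.80 with vehicle. Mean differences of these 4 sets lay between -0.09 and 0.063, and set 209774_x_at, like all sets with the suffix x, may bind related transcripts. The files hold no detection calls, so it cannot be said whether these transcripts were measured above background.

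Of the 15 probe sets, 5 spanned 2-fold or more over the 6 arrays, namely both sets of IL1B and of CXCL8 and the one of CCL2, while 4.69% of all probe sets did so. Pair number 1 differed in sign from the pairs numbered 2 and 3 for IL1B, with 0.26 against -0.52 and -0.39 on the first set and 0.22 against -0.36 and -0.28 on the second. CCL2 gave 0.21 in pair 1, against -0.24 and -0.30, and IL6 gave 0.21, against -0.49 and -0.15. The dexrazoxane minus vehicle difference of IL1B, CCL2 and IL6 thus had no single direction across pairs. Means over the pairs were nevertheless below 0 for every set of IL1B, CXCL8, CCL2, IL6 and LIF. CXCL8 211506_s_at was below 0 in each pair, though by only -0.005 in pair 1. Without the arrays numbered 1 the mean differences were -0.46 and -0.32 for IL1B, -0.44 and -0.49 for CXCL8, -0.27 for CCL2 and -0.32 for IL6. They were -0.051 for LIF, 0.12 for CXCL1, and 0.096, -0.093 and -0.065 for CXCL2 sets 1569203_at, 209774_x_at and 230101_at. None of these was called by limma, with adjusted p-values of 0.203 to 0.920 with the number as a block.

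**Figure D2:**
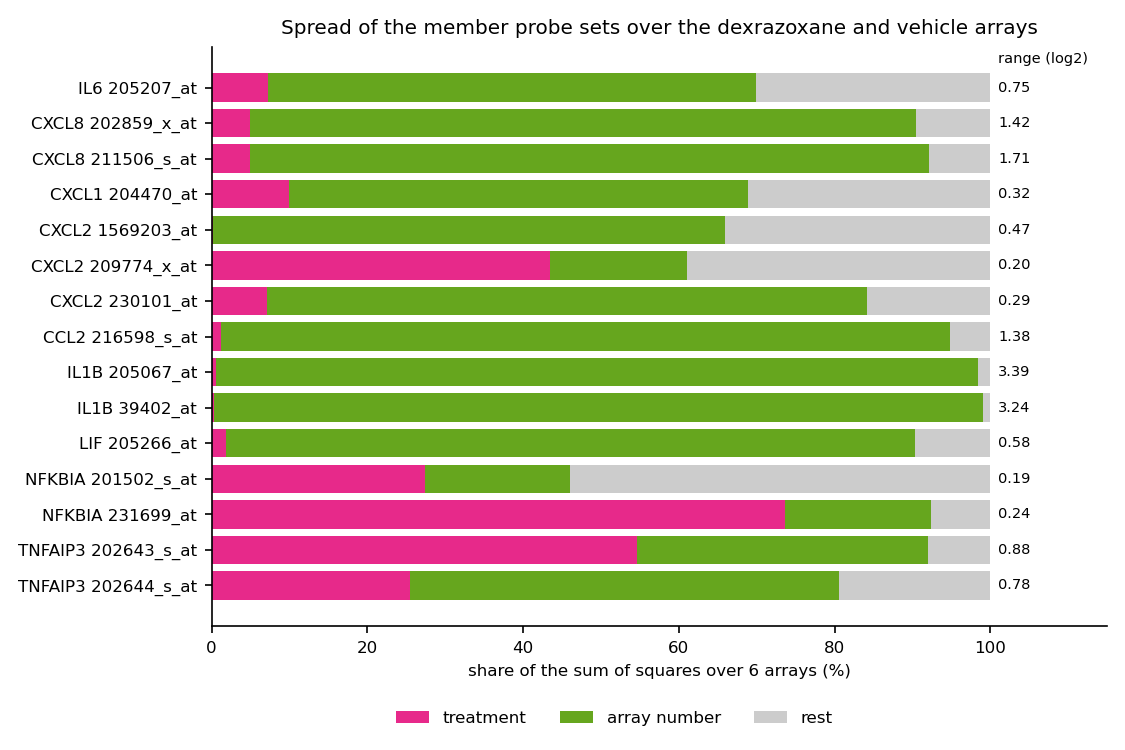
Share (%) of the sum of squares over the 6 dexrazoxane and vehicle arrays that lay between treatments, between array numbers and in the rest, for each probe set, with the log2 range over the 6 arrays at the right. Array number takes 97.9% and 98.9% for the IL1B sets, and treatment takes its largest shares in NFKBIA 231699_at (73.7%), whose range is 0.24, and TNFAIP3 202643_s_at (54.6%).

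The mean of the leukocyte markers was also lowest in each group on the array numbered 1, but single markers differed. CD3E followed the mean, at 6.64, 6.95 and 6.97 on dexrazoxane arrays 1 to 3, against 6.81, 7.12 and 7.10 on vehicle arrays 1 to 3. CSF1R did not, at 7.11, 6.98 and 6.87 with dexrazoxane, against 7.42, 7.61 and 7.20 with vehicle. The mean of the 6 leukocyte markers measured was 5.36, 5.68 and 5.65 on dexrazoxane arrays 1 to 3, against 5.47, 5.72 and 5.68 on vehicle arrays 1 to 3. Of these 6 genes, 2 were above the array median on every array and 2 below it on every array, PTPRC being below it, at 3.73 to 3.98 on its brightest set over the 6 arrays. No marker was at 0 on this scale. The mean of the 8 mesenchymal markers was 10.30, 10.14 and 10.09 with dexrazoxane, against 10.28, 10.07 and 10.12 with vehicle. The difference between the 3' and 5' control probe sets of ACTB, a sign of RNA integrity, was 0.098, 0.083 and -0.041 with dexrazoxane, against 0.11, 0.0098 and 0.0077 with vehicle. That of GAPDH was -0.056, -0.058 and -0.098 with dexrazoxane, against -0.070, -0.074 and -0.070 with vehicle. For ACTB the arrays numbered 1 were highest, with dexrazoxane array 2 close to them, and GAPDH did not follow the number. The part of any of these in the spread of the cytokines was not tested.

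TNFAIP3 was the one member whose arrays separated upward by treatment. Probe set 202643_s_at was at 7.41, 6.87 and 6.96 with dexrazoxane, against 6.79, 6.52 and 6.71 with vehicle. All dexrazoxane arrays were above all vehicle arrays. Of all probe sets, 4.61% separated in this way, and 1 of the 15 member sets did. The mean difference was 0.40 ± 0.16 (SE), a 1.32-fold ratio, and the pairs differed by 0.62, 0.34 and 0.25.

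This difference did not pass the threshold across all probe sets. The limma adjusted p was 0.9999 without a block and 0.135 with the array number as a block, where the 95% interval was 0.18 to 0.63. With trended and robust variance and the block it was 0.0315, a setting that called 1 of the 15 member sets higher and 0 lower, beside 1.79% of all probe sets higher and 2.14% lower. Without the arrays numbered 1 the difference was 0.30, with an adjusted p of 0.376 in the fit with the block.

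The second TNFAIP3 set, 202644_s_at, was at 8.47, 7.69 and 8.10 with dexrazoxane, against 7.90, 7.70 and 7.85 with vehicle. Here the groups overlapped, because the arrays numbered 2 were nearly equal, at a difference of -0.006. The mean difference was 0.27 ± 0.19 (SE), with a limma adjusted p of 0.370 with the block. Without the arrays numbered 1 it was 0.12.

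NFKBIA, the other feedback gene measured, had the smallest range of the 15 sets. Probe set 201502_s_at was at 8.85, 8.71 and 8.74 with dexrazoxane, against 8.81, 8.89 and 8.79 with vehicle, a mean difference of -0.065 ± 0.11 (SE). Its range of 0.19 was exceeded by 95.5% of all probe sets. The dim set 231699_at was at 4.53, 4.49 and 4.39 with dexrazoxane, against 4.62, 4.64 and 4.59 with vehicle. All 3 dexrazoxane arrays were below all 3 vehicle arrays, as for 3.9% of the whole table, by -0.14 ± 0.10 (SE), and the limma adjusted p was 0.516 with the block. This set lay below the array median on all 8 arrays. Without the arrays numbered 1 the NFKBIA differences were -0.12 and -0.17.

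The limma fit without a block called 0 of the 15 member sets higher and 0 lower at an adjusted p under 0.05, where it called 0% of the table higher and 0.00183% lower. With the array number as a block the member counts were again 0 and 0, beside 0.0751% higher and 0.0824% lower. At an unadjusted p under 0.05 there was 1 member set without the block (TNFAIP3 202643_s_at) and 2 with it (both TNFAIP3 sets), beside 3.7% and 13.2% of all sets. The median difference of the 15 sets was -0.09, and 4 were above 0 and 11 below, while the median over the table was -4.17e-05. In the fit with the block the unadjusted 95% intervals reached from -0.71 at the lowest for CXCL8 211506_s_at to 0.63 at the highest for TNFAIP3 202643_s_at.

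**Figure D3:**
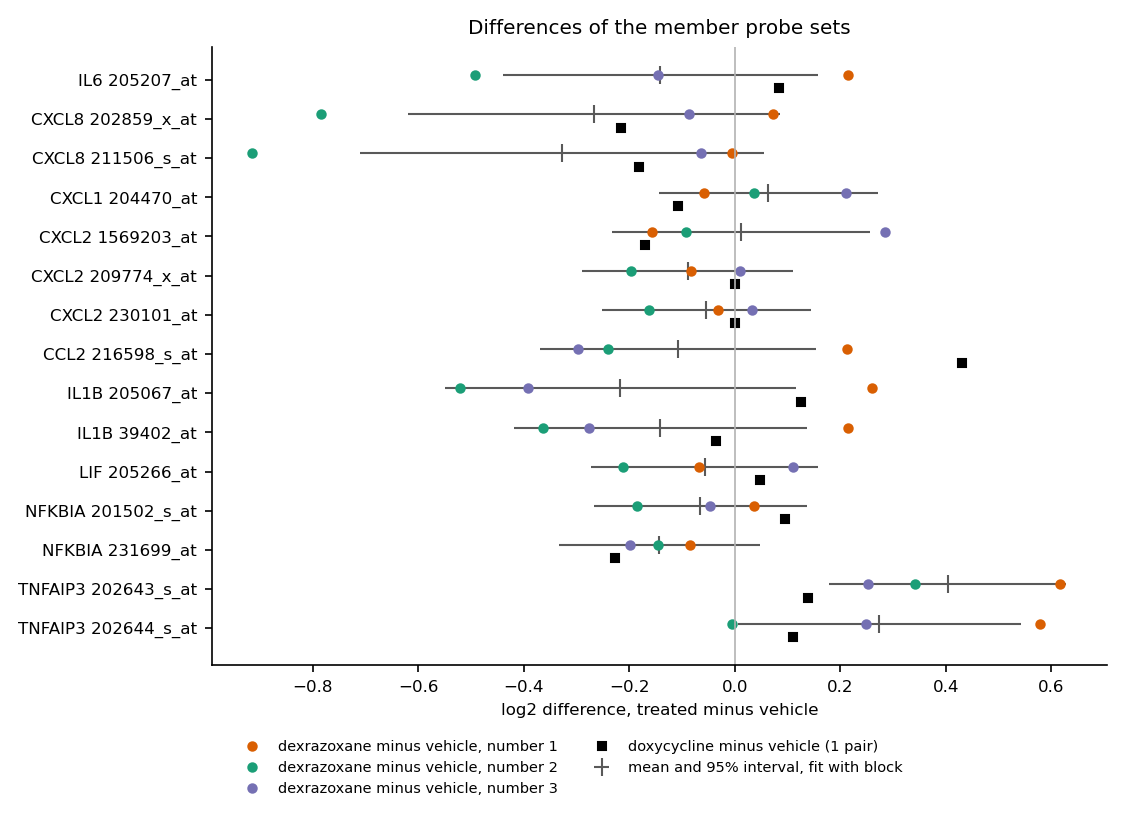
Log2 differences of each probe set: dexrazoxane minus vehicle for arrays numbered 1, 2 and 3 (coloured circles), their mean with the 95% interval of the fit with the number as a block (grey), and doxycycline minus vehicle (black squares, 1 pair, no error). The interval of TNFAIP3 202643_s_at runs from 0.18 to 0.63 and that of 202644_s_at from 0.0053 to 0.54, before adjustment for the number of sets tested, and the intervals of the other sets include 0.

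In the doxycycline pair, which has no replicates, 0 of the 15 sets differed by 1.5-fold or more in either direction, as did 0.39% of all probe sets (0.22% higher and 0.17% lower). CCL2 gave the largest difference, at 6.72 with doxycycline against 6.29 with vehicle, a 1.35-fold ratio that 2.29% of all sets exceeded. It lay above all 3 dexrazoxane pair differences of that gene. No direction was shared by the cytokines. IL1B was at 6.70 on the doxycycline array, against 6.57 on its vehicle array, for the first set, and at 6.55 against 6.59 for the second.

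CXCL8 was at 8.54 with doxycycline, against 8.75 with vehicle, on 202859_x_at, and at 6.62 against 6.81 on 211506_s_at. IL6 was at 6.60 and 6.51, and LIF at 7.03 and 6.98, on the doxycycline and vehicle arrays. Differences of these genes were thus small on the scale of the 0.177 SD over all probe sets, except those of CXCL8 (-0.22 and -0.18) and CCL2 (0.43). CXCL1 differed by -0.11 and CXCL2 by -0.17 on its set 1569203_at, while its other 2 sets had identical values on both arrays, as had 9.63% of all probe sets.

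The feedback genes differed little with doxycycline, except on the dim NFKBIA set. TNFAIP3 was at 6.43 with doxycycline, against 6.29 with vehicle, on 202643_s_at, and at 7.77 against 7.66 on 202644_s_at. Both differences, 0.14 and 0.11, had the sign of the dexrazoxane means, but 35.9% and 47.7% of all sets exceeded them in size. NFKBIA was at 8.40 and 8.30 on the doxycycline and vehicle arrays for 201502_s_at, a difference of 0.096. The dim 231699_at was at 3.64 and 3.87, a difference of -0.23 that 17.9% of all sets exceeded in size. The median of the 15 sets was 0, with 7 sets above 0 and 6 below, and the median over the table was 0.

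The genes around the members were described by 9 lists of 99 genes, of which 93 had 248 probe sets. Over the whole table limma called none of them with its standard variance, with or without the block, and 0 passed 1.5-fold with doxycycline. Of the 248 probe sets, 23 lay with all dexrazoxane arrays above all vehicle arrays and 10 with all below, beside 4.61% and 3.9% of all probe sets. In the fit that kept 1 probe set per gene above the 40th percentile of brightness, with the block, 7 of the 84 sets kept were called higher and 0 lower. That fit called 2.44% of its 14730 genes higher and 2.44% lower, and called 0 of the 7 members it kept.

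Those 7 genes were the following. IL32, which encodes a proinflammatory cytokine, differed by 0.51 ± 0.080 (SE, limma adjusted p = 0.0175). IL24, a cytokine of the IL-10 family, differed by 0.57 ± 0.10 (0.0251). STAT3, the transcription factor that carries IL6 and LIF signals, differed by 0.37 ± 0.073 (0.0315). LTBR, a receptor that feeds the noncanonical NF-kB arm, differed by 0.44 ± 0.086 (0.0325), and RELA, which encodes the p65 subunit of NF-kB, by 0.36 ± 0.078 (0.0402). ZFP36, whose product speeds the decay of cytokine transcripts, differed by 0.34 ± 0.073 (0.0403), and CXCR2, the receptor of CXCL8, CXCL1 and CXCL2, by 0.33 ± 0.075 (0.0498). In the fit over all probe sets with the block their adjusted p-values were 0.066 to 0.160. Without the arrays numbered 1 their differences were 0.28 to 0.53, and the adjusted p-values of that fit 0.167 to 0.403. The same fit with 1 probe set per gene also called the leukocyte marker CSF1R lower (-0.42, adjusted p = 0.0383) and the epithelial marker KRT8 higher (0.51, adjusted p = 0.0334), and the part of other cell types in these values was not tested. With the block and trended, robust variance over all probe sets, IL32, IL24, STAT3 (2 sets), LTBR, RELA and ZFP36 were called higher. HNRNPD, whose product AUF1 binds AU-rich elements of cytokine transcripts, was called lower there on 229129_at (-0.46, adjusted p = 0.00745) and 221480_at (-0.35, adjusted p = 0.0141). The groups overlapped on both of these HNRNPD sets, and no other HNRNPD set was called there. That setting also called the mesenchymal marker CDH2 lower (-0.31, adjusted p = 0.0201), and again CSF1R lower and KRT8 higher.

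Among NF-kB subunits the median of 12 sets was 0.17. RELA (201783_s_at) was at 8.65, 8.43 and 8.44 with dexrazoxane, against 8.18, 8.16 and 8.11 with vehicle. NFKB2, the precursor of the noncanonical subunit p52, was at 6.35, 6.24 and 6.09 on 209636_at, against 6.03, 5.97 and 5.62. On these RELA and NFKB2 sets the groups did not overlap. No other of the 12 sets had all dexrazoxane arrays above all vehicle arrays, so the other NFKB2 sets did not separate upward. In 1 of the 12 sets all dexrazoxane arrays lay below all vehicle arrays. The second RELA set (209878_s_at) differed by 0.27, with overlapping groups, and RELB (205205_at) by 0.25. With doxycycline RELA differed by -0.063 and NFKB2 by 0.22.

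The other feedback genes had a median of 0.066 over 26 sets, with members on both sides. NFKBIZ, which encodes an atypical nuclear IkB, was at 5.69, 5.70 and 5.61 with dexrazoxane on 223217_s_at, against 6.09, 5.97 and 5.85 with vehicle. The doxycycline difference of that set was -0.27. On the second NFKBIZ set, 223218_s_at, the dexrazoxane arrays were not all below the vehicle arrays. TRAF1, an NF-kB-induced adaptor, was at 6.72, 6.47 and 6.46, against 6.27, 6.39 and 6.14. CYLD, a deubiquitinase that limits NF-kB signalling, differed by 0.31 with dexrazoxane, with overlapping groups, and by 0.33 with doxycycline. TNIP3 (-0.21) was dim. None of those named was called, with limma adjusted p-values of 0.187 or more with the block.

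**Figure D4:**
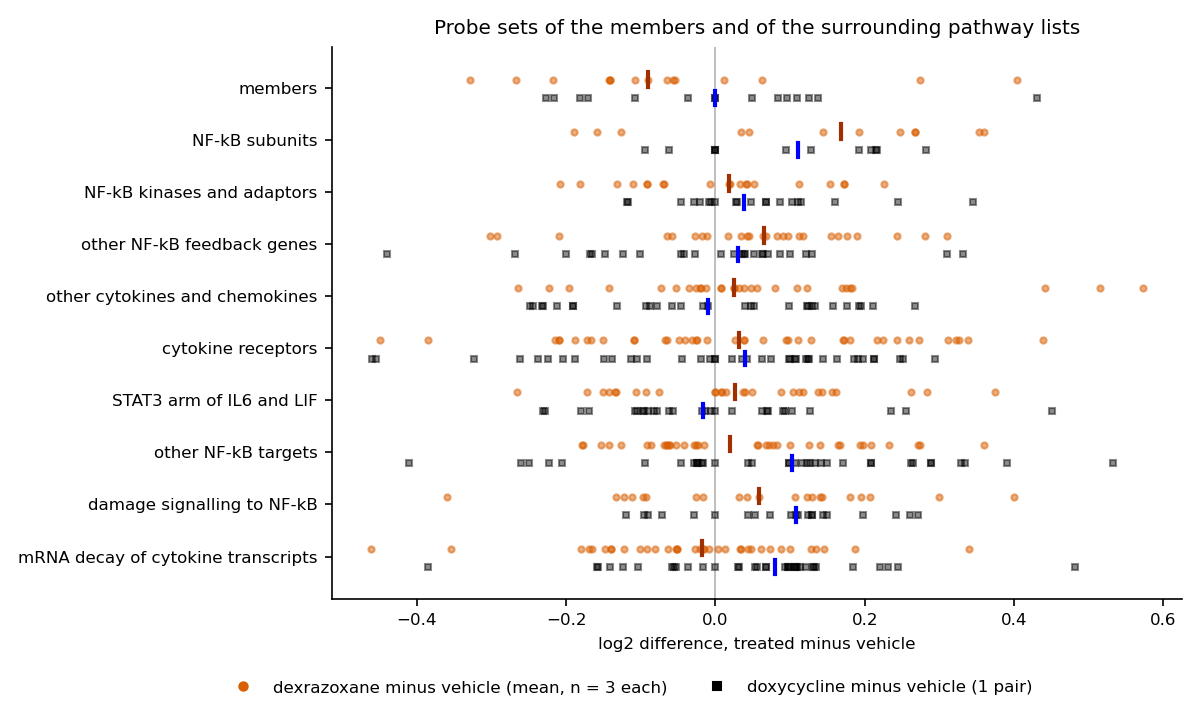
Log2 differences of every probe set of the members and of 9 lists of surrounding genes, dexrazoxane minus vehicle (orange circles, means of 3 arrays each) and doxycycline minus vehicle (black squares, 1 pair), with the median of each list as a vertical bar. The list medians with dexrazoxane lie between -0.018 and 0.17, beside -0.09 for the 15 member sets.

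The remaining cytokines and chemokines had a median of 0.025 over 29 sets. IL32 was at 7.41, 7.21 and 7.26 with dexrazoxane, against 6.93, 6.55 and 6.85 with vehicle. IL1A and IL24 were picked after their values were seen, for ranges near that of IL1B. IL1A (210118_s_at) was at 6.51, 7.79 and 8.49, against 6.34, 8.57 and 8.67, and IL24 was at 9.75, 11.44 and 11.31, against 8.90, 10.92 and 10.96. Both were lowest on the arrays numbered 1, and their ranges of 2.33 and 2.54 were the 63rd and 36th widest of the table. The second, dimmer IL1A set (208200_at) spanned only 0.27. CXCL5 differed by -0.22 on 214974_x_at, a dim set with the suffix x, and CTF1, a ligand of gp130, differed by 0.18.

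Receptors had a median of 0.032 over 40 sets. LTBR was at 7.85, 8.27 and 7.88 with dexrazoxane, against 7.52, 7.64 and 7.52 with vehicle. TLR4, the receptor for bacterial lipopolysaccharide, differed by 0.31 on 1552798_a_at, with groups that did not overlap on that set. IL6R, the receptor subunit specific to IL6, differed by 0.24 with dexrazoxane and by 0.29 with doxycycline. Kinases and adaptors had a median of 0.018 over 20 sets. MAP3K7, the kinase TAK1, differed by -0.21 on 206853_s_at, without overlap of the groups and without a call. On every other set of that list the groups overlapped, the other MAP3K7 sets included.

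In the STAT3 arm the median of 28 sets was 0.026. STAT3 (208991_at) was at 9.90, 9.75 and 9.97 with dexrazoxane, against 9.57, 9.37 and 9.56 with vehicle. The other 2 bright sets of STAT3 differed by 0.28 and 0.26, without overlap, while the dim set 243213_at differed by -0.27. SOCS3, the feedback inhibitor induced by STAT3, differed by 0.0093 (227697_at), and array number took 99.5% of its spread. There the arrays numbered 1 were high, at 7.54 with dexrazoxane and 7.54 with vehicle, against 6.58 to 6.74 on the other 4.

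Other NF-kB targets had a median of 0.02 over 36 sets. CFLAR, an inhibitor of death receptor signalling, differed by 0.36 on the dim set 239629_at, GADD45B by 0.27 and CD83 by -0.18. Genes that carry damage signals to NF-kB had a median of 0.058 over 21 sets, with PIAS4 at 0.18. TAB3 differed by 0.40 on 1552928_s_at, which was above the array median on only 1 of the 8 arrays. ERC1 differed by -0.36 on the dim set 1563947_a_at, while its brighter set 226049_at differed by 0.14. Decay factors of cytokine transcripts had a median of -0.018 over 36 sets, with HNRNPD at -0.46 (229129_at), ZFP36 at 0.34 and ELAVL1 at -0.14. With the standard variance none of these was called over the whole table, with or without the block, while HNRNPD and ZFP36 were called with the block and trended, robust variance.

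The pattern over the 6 arrays most like the mean of the CXCL1, CXCL2 and CXCL8 sets was sought among 6791 genes above the 40th percentile with a range of at least 0.5. Because the dim sets hardly varied, that mean followed CXCL8 (Pearson r of 0.973 and 0.989 for its sets). The 5 highest were ZNF354C (0.993), IL1RAP, which encodes the co-receptor of interleukin-1 (0.989), KCNH2 (0.982), PYHIN1 (0.981) and POC1B (0.977). The 5 lowest were ANKFY1 (-0.998), CHAMP1 (-0.996), ZNF512B (-0.995), WDR6 (-0.994) and FST (-0.992). These values describe 6 arrays that share their numbering, and 149 of the candidates reached 0.9. By the same measure LIF stood at 0.954, IL6 at 0.918, IL1B at 0.899 and 0.893 and CCL2 at 0.815. The feedback genes did not follow it, with -0.02 and -0.10 for the NFKBIA sets and -0.64 and -0.48 for those of TNFAIP3.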

How the data were processed

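Gene expression was measured on Affymetrix arrays in 8 samples of HTETOP cells. The deposited log2 values were made by the authors with RMA, per the submitters' processing notes. The sources used here do not state whether all arrays were normalized together. The table held 54675 probe sets, of which 62 control sets were left out. Of the rest, 41091 carried 1 gene symbol, 1801 several and 11721 none in the annotation used here, and symbols were updated through Entrez identifiers and RefSeq (GRCh38.p14).

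Dexrazoxane was compared with vehicle over all 54613 sets by two-sided tests from eBayes after lmFit (limma 3.58.1 under R 4.3.3) without a block, and p-values were adjusted by Benjamini-Hochberg with 0.05 as the bound. SEs come from this fit unless the block is named. The labels share the numbers 1 to 3, and same-numbered arrays deviated together from their group means, at correlations of 0.727, 0.450 and 0.530, so a fit with the number as a block was added. The pairing comes from that check in the same data. For doxycycline no p-value was computed, and a ratio of 1.5 was used as the bound. The procedure was tested on simulated data. Precision is limited by the number of arrays.

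Members and lists were chosen with earlier results of these data known. Named genes were the members, TOP2A, up to 3 genes per list by smallest p, up to 2 by doxycycline difference and the 10 of the likeness search, and from these the text takes those it needs. In addition it names genes called under an alternative. Sequences are from RefSeq.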

Additional observations from a re-analysis of the deposited data

How the results depend on the processing

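Of 269 values of single member sets under alternatives, 245 kept their direction and their side of the threshold. TNFAIP3 202643_s_at (0.40) passed with the block and trended, robust variance (adjusted p = 0.0315), which made 1 member called higher. It stayed above 0 when any array was left out. Alternatives that combine the block with a second choice, or leave out the arrays of a number, were chosen after seeing the data. The other 23 values changed sign, all when arrays were left out. Leaving out 1 array at a time gave -1.31 to 0.64 and -1.19 to 0.73 for IL1B, -0.72 to 0.015 and -0.89 to 0.069 for CXCL8, -0.52 to 0.17 for CCL2, -0.22 to 0.072 for LIF, -0.026 to 0.13 for CXCL1 and -0.10 to 0.13 and -0.14 to 0.0056 for CXCL2 1569203_at and 230101_at. The member median (-0.09) was -0.14 to 0.069, the highest without dexrazoxane array 1. With the block and arrays of 1 number left out, IL6 reached 0.034, LIF 0.021, CXCL1 -0.011, CXCL2 1569203_at -0.12 and CXCL2 230101_at 0.00015.

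Over the whole table the fit without a block called 0 sets higher and 1 lower (a TOP2A set). The lower count was 0 with 1 probe set per gene, with quantile normalization, without any 1 of the 6 arrays and without both arrays numbered 1, and 2 with trended, robust variance. With the replicate block the counts were 41 higher and 45 lower. They were 359 and 360 with 1 probe set per gene, 49 and 61 with centred arrays, 39 and 51 with quantile normalization, 975 and 1169 with trended, robust variance, 1 and 2 without the arrays numbered 1, 68 and 65 without those numbered 2, and 91 and 122 without those numbered 3. Pathway lists had 7 higher calls with the block and 1 probe set per gene, 7 higher and 2 lower with the block and trended, robust variance, and 0 to 1 higher with the block and a number left out. The doxycycline counts past 1.5-fold fell to 4 higher and 14 lower with 1 probe set per gene above the 40th percentile. For these shifts, the cause was not tested. With the standard variance the block changed no call of a member, and with trended, robust variance it changed that of TNFAIP3 202643_s_at, whose adjusted p there was 0.9999 without it.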
